A study of Drosophila melanogaster with 2 samples.

Results

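Cohesin is the protein ring that holds sister chromatids together and extrudes loops of interphase chromatin. Here the RNA of 9 of its genes was followed among the 17807 genes measured in Kc167 cells. The members were chosen by name, as the subunits of the core complex and the factors that load, stabilise or release it, and each was found by its FlyBase identifier. They are SMC1, SMC3, vtd, SA, SA-2, Nipped-B, pds5, wapl and eco. Current symbol tables list SA as SA1 and SA-2 as SA2, and both were matched through their synonyms. The samples were 2 libraries of polyadenylated RNA, replicates 1 and 2 of the DMSO control. Kc167 is a Drosophila cell line of embryonic origin, so all values describe a single line. The cells of both libraries were grown at 25 °C and received 2% DMSO, the solvent of the inhibitor used elsewhere in the study, for 1 h. No other condition was analysed here, so every value below is a level and none is a response. Nothing in the labels says whether the replicates came from separate cultures, so the SD between them may reflect technical spread alone.

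In the ring, the long coiled-coil ATPases SMC1 and SMC3 pair at a hinge, and the kleisin vtd (the fly Rad21) closes the ring by joining their heads. SA, a HEAT-repeat protein also called stromalin, docks on the kleisin. Nipped-B loads the ring onto chromatin, pds5 and wapl sit on the kleisin and help to open it, and eco acetylates SMC3, which makes the ring resistant to release. In flies these genes are known beyond mitosis. Nipped-B was found through its effect on distant enhancers, and vtd, short for verthandi, as a gene of the trithorax group.

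Sequencing depth was even, at 33436865 gene counts for replicate 1 and 31721648 for replicate 2. A gene is called counted here if both libraries gave it 10 counts or more, as they did for 8846 genes, or 49.7% of the table. Of the 9 members, 8 were counted genes, and SA-2 was the exception. Together the members held 0.205% of all gene counts in one library and 0.206% in the other. Their levels are given as deposited TPM, that is, counts divided by gene length and scaled to a fixed sum per library. The line was checked against 11 hemocyte markers, of which 9 were counted genes. He was highest at 188 TPM, followed by the basement membrane gene Col4a1 at 143 and vkg at 102. The clotting factor gene Hml was at 47.0 and the GATA factor gene srp at 45.8. Other markers were low, with Ppn at 5.47 TPM, Pxn at 4.18 and the phagocytic receptor gene NimC1 at 1.76, all below the lower quartile of counted genes, 7.50 TPM. The crystal cell genes PPO1 and PPO2 had between 1 and 7 counts per library, and lz was at 0.262 TPM. Over the 11 markers the median was 5.47 TPM, and over the 9 that were counted genes it was 45.8. The median over all counted genes was 29.8. Summed over the 11 markers, TPM was 528 in replicate 1 and 547 in replicate 2. These levels depend on the gene length used. With each exonic base counted once, Ppn was at 13.0 TPM and Pxn at 10.2, above the lower quartile of 8.57 on that scale. NimC1, at 2.42, stayed below it, and srp was at 116. The median over the 11 markers, PPO1 and PPO2 included, was then 13.0. That over all counted genes, to which PPO1 and PPO2 do not belong, was 34.9.

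All 4 core subunits lay above the loader and the regulators when the deposited TPM was used. SMC1 was highest, at 179 TPM in replicate 1 and 186 in replicate 2. The kleisin gene vtd followed at 134 and 135. SMC3, the partner of SMC1 in the ring, was measured at 122 in both libraries. SA was the lowest core subunit, at 100.3 and 105. SMC1 exceeded SMC3 by 1.49-fold ± 0.0430 (SD, n = 2) and SA by 1.78-fold ± 0.00949 (SD, n = 2). These genes lie on different chromosomes, SMC1 on 3R from 24058287 to 24062815, SMC3 on X from 16588996 to 16593439, vtd on 3L from 27136525 to 27157999, and SA on 2L from 6950421 to 6954586, in dm6 coordinates.

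**Figure D1:**
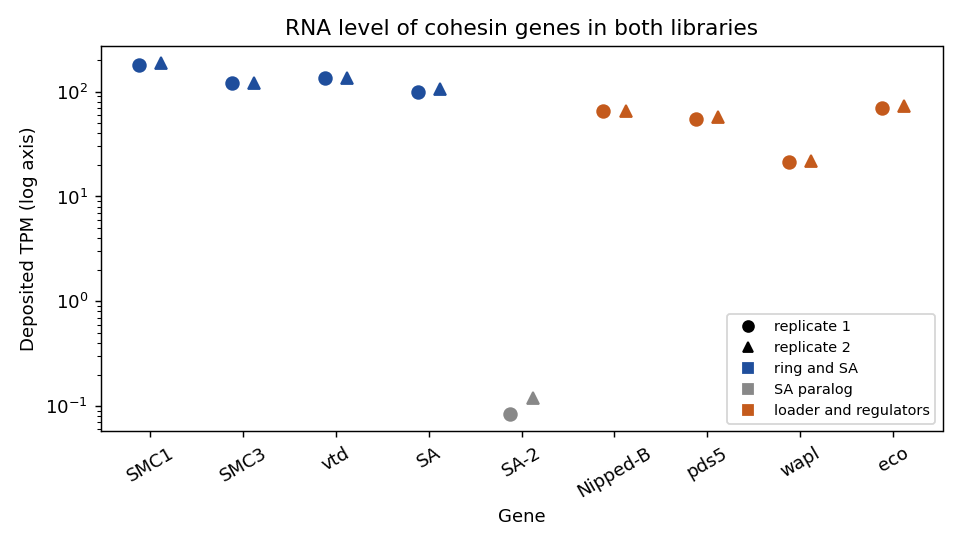
Deposited TPM of each of the 9 genes on a log axis, with a circle for replicate 1 and a triangle for replicate 2. The 4 core subunits (blue) sit between 100.3 and 186 TPM, the loader and regulators (orange) between 21.3 and 72.4, and SA-2 (grey) near 0.1.

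Among the factors that act on the ring, eco had 69.5 TPM in replicate 1 and 72.4 in replicate 2. The loader gene Nipped-B had 64.8 and 65.3, and pds5 had 54.8 and 57.0. The release factor gene wapl was lower than the other three, at 21.3 and 21.8 TPM. pds5 and wapl, whose proteins act together in release, differed by 2.59-fold ± 0.0326 (SD, n = 2). The order of all 9 genes was the same in both libraries. No neighbours in it overlapped between libraries, although 2 libraries give the least that such a reading can rest on. The narrowest step was between eco and Nipped-B, whose means differed by 1.09-fold. From the lowest counted member to the highest, wapl to SMC1, the levels spanned 8.45-fold ± 0.0978 (SD, n = 2).

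The core and regulatory genes differ in how many transcripts are annotated for them, and the deposited TPM depends on that number. For 9 of the 9 members the deposited length equalled the lengths of all annotated transcripts added together, which enters a shared exon as many times as there are transcripts with it. SMC1, SMC3, SA and SA-2 have 1 annotated transcript, and their deposited length is their exonic length. A single transcript is annotated for 39.9% of counted protein-coding genes, against 3 of the 8 counted members. vtd, pds5 and eco have 2 transcripts and deposited lengths of 1.91, 1.95 and 1.95 times their exonic bases. wapl has 3, with a length 2.66 times as large, and Nipped-B has 6. For Nipped-B the deposited length was 39521 bases, 5.89 times the 6711 exonic bases of the gene. The deposited length thus exceeds the exonic bases at all 4 loader and regulator genes, and at vtd alone among the 4 core genes.

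With each exonic base counted once, the order of the members changed. Nipped-B became the highest, at 244 TPM in replicate 1 and 245 in replicate 2. It was followed by vtd at 164 in both libraries and by SMC1 at 114 and 118. The ratio of Nipped-B to SMC1, which does not depend on the scaling of the library, went from 0.357 ± 0.00782 (SD, n = 2) to 2.10 ± 0.0461 (SD, n = 2). Within the ring, vtd moved from below SMC1 to above it, with SMC1 at 0.710 ± 0.0159 of its level (SD, n = 2). Only SMC1 and vtd of the core subunits then remained among the highest 4 counted members, where the deposited length had placed all 4. eco, at 86.9 and 89.9, came to lie above SMC3, at 78.3 and 77.6. pds5, at 68.3 and 70.7, likewise came to lie above SA, at 64.2 and 66.8. wapl, at 36.3 and 36.9 TPM, was still the lowest of the counted members. Using the longest annotated transcript as the length gave the same order as the exonic length.

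**Figure D2:**
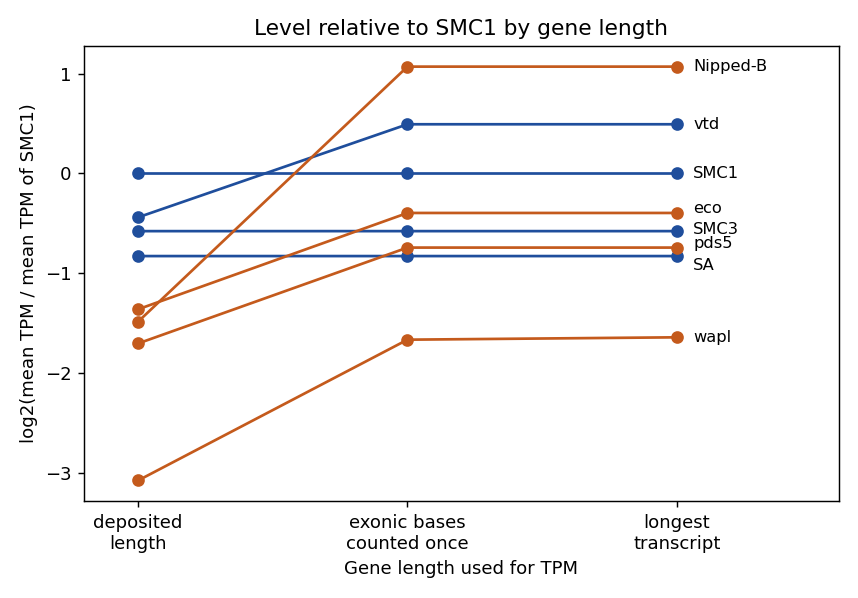
Mean TPM of each counted member relative to SMC1 on a log2 scale, for 3 ways of setting the gene length, with core subunits in blue and the loader and regulators in orange. Nipped-B moves from below SMC1, at a ratio of 0.357, to above it, at 2.10, while the lines of SMC1, SMC3 and SA, with 1 transcript each, stay flat.

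Some relations between members were alike with all 3 gene lengths. SMC1, SMC3 and SA kept their ratios, since each has 1 transcript. Likewise eco stood 1.27-fold above pds5 with the deposited and the exonic length (SD 0.000841 with the deposited one, n = 2), but in CPM, counts per 1000000 gene counts with no length applied, it stood at 0.943 of pds5. pds5 exceeded wapl by 1.90-fold ± 0.0238 (SD, n = 2) with exonic length, less than the 2.59-fold above but in the same direction. The spread among the 4 core subunits widened from 1.78-fold to 2.50-fold ± 0.0694 (SD, n = 2), now from SA to vtd. In CPM SA, at 123, replaced wapl, at 133, as the lowest counted member. In raw reads Nipped-B stood apart from the rest. Its counts were 28346 and 26787 in replicates 1 and 2, against 7763 and 7567 for SMC1 and 3961 to 7152 for the other 6 counted members.

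The place of the members among all counted genes moved with the length as well. A percentile here is the share of counted genes with a lower mean TPM. With the deposited length SMC1 stood at percentile 90.6, vtd at 86.2, SMC3 at 84.5 and SA at 81.2. eco stood at 72.9, Nipped-B at 70.5, pds5 at 66.5 and wapl at 42.3. With exonic length Nipped-B stood at 93.4, vtd at 89.4, SMC1 at 84.1 and eco at 78.3. SMC3 stood at 74.9, pds5 at 71.7, SA at 69.8 and wapl at 51.6. With the deposited length the median log2(TPM + 1) was 6.17 over the 9 members, SA-2 included, and 6.43 over the 8 counted members. Over all counted genes it was 4.95.

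**Figure D3:**
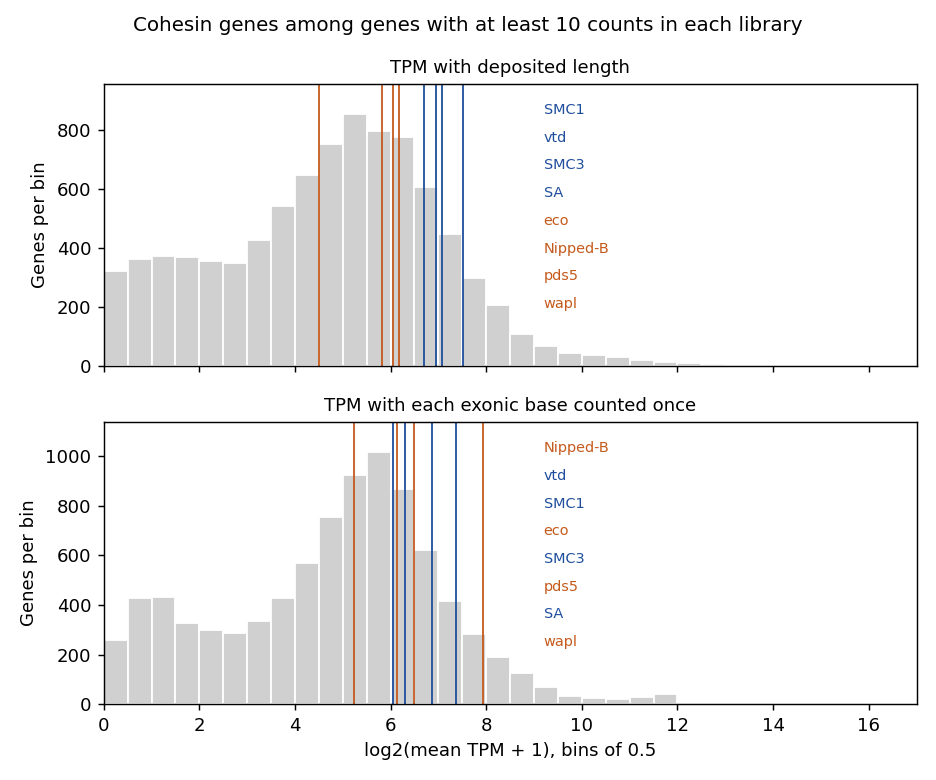
Number of counted genes per bin of log2(mean TPM + 1), with vertical lines at the 8 counted members and their names listed from the highest at the top, for the deposited length (upper panel) and for each exonic base counted once (lower panel). All core subunits (blue) lie to the right of all orange lines in the upper panel, and in the lower panel both colours mix, with Nipped-B farthest to the right.

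Few reads fell in SA-2. It encodes a second stromalin-like protein, also named snm for stromalin in meiosis, which is known for keeping homologous chromosomes paired in male meiosis. Replicate 1 gave SA-2 3 counts and replicate 2 gave it 4. On the CPM scale this was 0.0897 with an exact 95% Poisson interval from 0.0185 to 0.262 in replicate 1 and 0.126 with an interval from 0.0344 to 0.323. Intervals of this kind cover counting error only. Per base of length, the level of SA was 1012 times that of SA-2, with an exact binomial interval from 491 to 2517 over both libraries. SA-2 lies on 3L from 1434336 to 1437872, nested within the larger gene Ptp61F on the same strand, and shares 0 exonic bases with it. Ptp61F had 4300 and 3967 counts, and whether the few reads in SA-2 came from Ptp61F precursor RNA was not tested. Of 9 testis markers, 0 were counted genes, beside 49.7% of the table, and together they had 11 counts in replicate 1 and 12 in replicate 2.

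Other cohesion genes were examined as a list of 12, in which 8 are known outside the germ line and 4 from the germ line. All 8 of the first kind were counted genes, beside 49.7% of the table. The highest was san, an N-terminal acetyltransferase gene needed for cohesion, at 209 TPM ± 6.57 (SD, n = 2). Second was dmt, the gene for Dalmatian, which protects cohesin in mitosis, at 105 TPM ± 0.564 (SD, n = 2). Mau2 encodes the partner of Nipped-B in the loader. It had 51.7 TPM in replicate 1 and 47.8 in replicate 2, so that Nipped-B exceeded it by 1.31-fold ± 0.0801 with the deposited length and by 7.72-fold ± 0.472 with exonic length (SD, n = 2). cutlet, the fly counterpart of the clamp loader subunit Ctf18, was at 52.8 TPM ± 3.46 (SD, n = 2).

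The genes that end cohesion at anaphase were also counted. The separase gene Sse had 49.9 and 50.2 TPM, and thr, which encodes a separase partner, 41.4 and 41.0. With exonic length their order turned, the ratio of Sse to thr going from 1.22 ± 0.0120 to 0.623 ± 0.00612 (SD, n = 2). The securin gene pim was lower with the deposited length, at 25.8 and 23.2. Sse exceeded pim by 2.05-fold ± 0.163 (SD, n = 2) with the deposited length, and with exonic length the ratio was 1.05 ± 0.0836 (SD, n = 2), which differs from 1 by less than its SD. mei-S332, the fly shugoshin gene, was the lowest of the 8 at 15.2 TPM ± 0.183 (SD, n = 2).

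Among the 4 germline cohesion genes, sunn differed from the others. It encodes a stromalin-related protein needed for cohesion in meiosis. sunn had 2052 counts in replicate 1 and 1942 in replicate 2, or 62.0 TPM ± 0.411 (SD, n = 2). SA exceeded it by 1.65-fold ± 0.0434 (SD, n = 2), and both genes have 1 transcript. The meiotic genes ord, c(2)M and solo had between 2 and 27 counts per library. Of the 4 genes, 3 were counted genes, beside 49.7% of the table. These were sunn, c(2)M at 0.953 TPM and solo at 0.319. solo shares 563 exonic bases with vas on the same strand, and read pairs in the shared part were given to neither gene. Of 5 other germline markers, 4 were counted genes. Their levels ran from 2.10 TPM at zpg to 74.6 at aub, with bam at 57.2 and vas at 3.05, while osk had 0 and 1 counts. Summed over the 5 markers, TPM was 135 in replicate 1 and 139 in replicate 2. Their part in the level of sunn was not tested.

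Condensin and the SMC5/6 complex are the other complexes built on SMC proteins. The ATPase genes of condensin, SMC2 and glu, had 149 TPM ± 4.70 and 167 TPM ± 7.52 (SD, n = 2). SMC1 lay 1.23-fold ± 0.00505 above SMC2, and SMC3 at 0.733 ± 0.0341 of glu (SD, n = 2), and these 4 genes have 1 transcript each. The 7 condensin genes ran from 11.9 to 167 TPM with a median of 59.6, where the 8 counted cohesin genes ran from 21.6 to 182 with a median of 86.8. With exonic length condensin had a median of 55.7 and a range from 18.9 to 106. The 8 counted cohesin genes then ran from 36.6 to 245, and the median over all 9 members, SA-2 included, was 77.9. SMC5 and SMC6 had 34.4 TPM ± 0.644 and 87.7 TPM ± 4.93 (SD, n = 2), and with exonic length their order turned, at 84.7 and 55.9. As members of a list are not replicates, these medians are descriptions and were not tested.

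**Figure D4:**
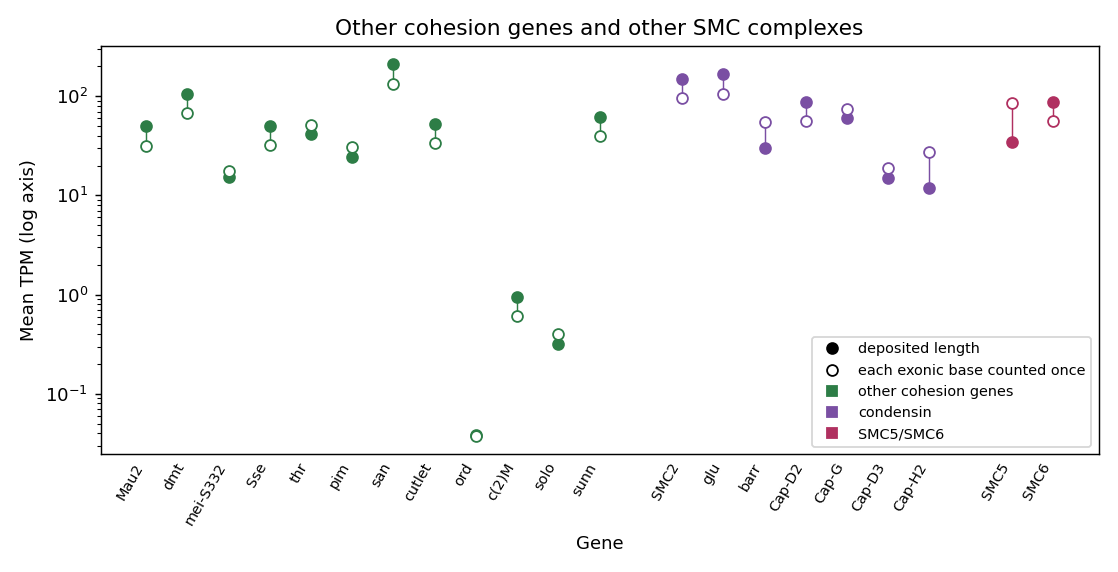
Mean TPM on a log axis for 12 other cohesion genes (green), 7 condensin genes (purple) and SMC5 and SMC6 (red), with filled circles for the deposited length and open circles for each exonic base counted once. ord, c(2)M and solo lie below 1 TPM, and sunn, at 62.0 TPM with the deposited length, lies among the remaining genes.

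The libraries differed little at the members. The log2 ratio of replicate 1 to replicate 2, scaled to counts on genes, ran from -0.05 at SA to 0.02 at SMC3 over the 8 counted members. The exact 95% interval of each of these 8 ratios included 0, considering counting error only. The share of all counted genes with such an interval was not determined. Not every other cohesion or SMC complex gene had one. At glu the interval ran from -0.120 to -0.0304 and at SMC6 from -0.167 to -0.0285. At cutlet it ran from -0.211 to -0.0227, and at Mau2 from 0.00903 to 0.252. For comparison, genes with 7000 to 60000 counts over both libraries, 1927 in number, had ratios from -0.07 at percentile 5 to 0.05 at percentile 95.

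Reads on the strand opposite to the gene were few. Their share of the reads of both strands ran from 1.14% at SMC3 to 2.90% at SA among the counted members. For reference, the 4709 protein-coding genes that reached 1000 counts in both libraries had a median of 1.18%. SA and wapl were above 2%, which makes 2 of 8, where 23.7% of the 4709 genes were. SA had 2.90% (exact 95% interval from 2.55% to 3.29%) and wapl 2.23% (interval from 1.93% to 2.56%). SA overlaps the convergent gene CG13775, which had 739 counts in each library, along 194 exonic bases. In the unstranded counts SA had 3828 and 3743 read pairs, fewer than the 4033 and 3961 of the strand-matched counts, whereas the other 7 counted members had more. wapl has no overlapping gene in the annotation.

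**Figure D5:**
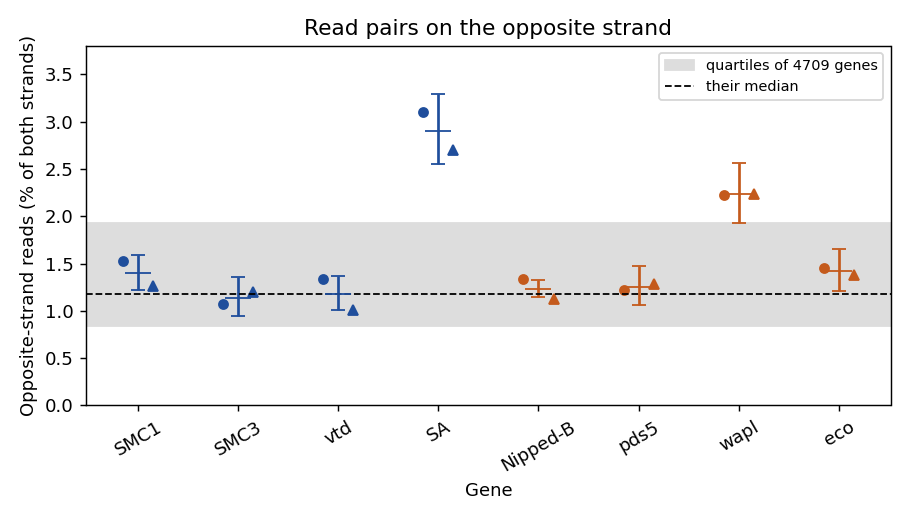
Share of reads on the opposite strand at the 8 counted members, in percent of the reads of both strands, with circles for replicate 1, triangles for replicate 2, and bars for the pooled share with its exact 95% interval, over the quartiles (grey band) and median (dashed line) of 4709 genes. SA, at 2.90%, and wapl, at 2.23%, lie above the band, and the other 6 genes lie within it.

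The loci of the members have features that the choice of genes did not use. A divergent counted gene starts within 500 bp of 5 of the 8 counted members, beside 36.5% of counted protein-coding genes. Upstream of SA lies Gas41 at 213 bp, upstream of SMC3 the ubiquitin-conjugating enzyme gene Ubc7 at 237 bp, and upstream of pds5 the gene Mppe at 277 bp. vtd is divergent from the noncoding gene lncRNA:CR45181 across 475 bp. eco and lark, which encodes an RNA-binding protein, overlap head to head by 75 bp, 10 of them exonic in both. lark had 54.7 TPM ± 0.720 (SD, n = 2). The divergent neighbour of SMC1 is the heat-shock gene Hsp68, at 976 bp, which had 1084 TPM ± 16.7 (SD, n = 2).

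Nipped-B and vtd stand out by their introns. Both are known as essential genes of pericentric heterochromatin. Nipped-B spans 37346 bp on 2R, from 4691672 to 4729017, of which 18.0% is exonic, and vtd spans 21475 bp with 11.8% exonic. In the other 7 members between 78.0% and 93.7% of the span is exonic. The annotation places 41 transposon insertions inside Nipped-B, which cover 46.7% of its span and 0 exonic bases. vtd holds 1 insertion of 2770 bp, and the other members hold 0. An insertion is annotated in 7.93% of counted protein-coding genes, and Nipped-B has rank 6 of 8263 by their number. With exonic length this pair of genes held the highest levels of the 9 members, with Nipped-B at 245 TPM ± 0.175 and vtd at 164 ± 0.0377 (SD, n = 2). With the deposited length Nipped-B had rank 6 and vtd rank 2, and in CPM they had ranks 1 and 3. A link between these levels and the introns or insertions was not tested.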

How the data were processed

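RNA-seq was analysed for 2 libraries of DMSO-treated Kc167 cells. The methods state that paired-end reads of stranded poly(A) libraries were aligned to dm6 with STAR 2.7.1a and counted per gene. The authors deposited raw counts in 3 strand columns, and a table with strand-matched counts, gene lengths and TPM. Rows that name no gene (21.6% of read pairs in replicate 1 and 21.0% in replicate 2) were left out of totals. Read pairs placed at several sites, 11.2% and 10.8%, were counted on no gene.

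Genes were matched by FlyBase identifier. Transcripts, exons and coordinates came from Ensembl release 115 of BDGP6.54, which has dm6 coordinates and covered 17710 genes of the table. TPM was recalculated with exonic bases counted once and with the longest transcript. Library scaling used totals, with TMM factors of edgeR 4.0.16 and size factors of DESeq2 1.42.0 as alternatives (R 4.3.3). Other steps used Python 3.11.15, numpy 2.4.6, pandas 2.3.3 and scipy 1.17.1. Simulated data were used to test the TPM formula and the library scaling only. The TPM simulation drew and divided counts by the same deposited length, so it cannot bear on the choice of gene length. With 1 condition no test was made. At depths of 31721648 and 33436865 gene counts, 0 counts allow up to 0.0946 CPM, taking 3 counts as the limit.

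All 9 members and the 12 other cohesion genes are named. Condensin is given by its range, median and SMC genes, and markers by sums and single values chosen after these were seen. Members and lists were chosen with earlier results of these data known. No sequences were used here.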

Additional observations from a re-analysis of the deposited data

Results flagged for a closer look

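The opposite-strand counts, which enter no TPM, held a signal at 2 of the listed cohesion genes, above the 3 counts that 0 observed counts allow and above 10% of the reads of both strands. At mei-S332 there were 703 such read pairs over both libraries, 41.4% of the reads of both strands in replicate 1 and 40.6% in replicate 2. mei-S332 overlaps Vrp1 on the opposite strand along 100 exonic bases, and Vrp1 had 4062 and 3736 counts. At c(2)M there were 350, or 91.1% and 84.9% of the reads of both strands. c(2)M overlaps CG5861 on the opposite strand along 140 exonic bases, and CG5861 had 1852 and 1683 counts. Whether the reads came from these neighbours was not tested. At the counted members the share over both libraries was at most 2.90%.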

How the results depend on the processing

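Unstranded counts moved the TPM of 7 of the 9 members and the percentile of 7 of 8 by more than 1 SD, and leaving out mitochondrial genes moved the TPM of 8, with SMC1 at 205 in place of 182. Core subunits among the highest 4 counted members numbered 4 with the deposited length and 2 with exonic length, with the longest transcript or with CPM. The ratio of Nipped-B to SMC1, at 0.357, was 2.10 with exonic length and with the longest transcript, and 3.60 with CPM. The fold across the core subunits, at 1.78, was 2.50 with both other lengths and 1.90 with unstranded counts. The fold across counted members, at 8.45, was 6.68 with exonic length and 6.57 with the longest transcript. The median percentile of counted members, at 77.1, was 76.6 with exonic length, 85.9 with CPM and 82.2 among genes with at least 1 count in each library. The median log2(TPM + 1), at 6.17, was 6.30 with exonic length and 6.43 over the 8 counted members. The cause was not tested beyond the lengths and gene sets themselves. With exonic length the TPM of genes whose length stayed equal shifted by -0.65 and that of the median counted gene by 0.19 on the log2 scale, and all 9 members moved by more than 1 SD. The SMC1 to SMC3 ratio and the SA to SA-2 ratio did not. The number of counted members, which has no SD, was 8 with unstranded counts and 9 at a minimum of 1 count, where SA-2 passed. The median log2 library ratio at the counted members, at -0.0273, was -0.0174 with TMM and -0.0178 with DESeq2 size factors.

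With one replicate left out, the SA to SA-2 ratio was from 877 to 1191, the fold across core subunits from 1.77 to 1.78, across counted members from 8.38 to 8.52, Nipped-B to SMC1 from 0.351 to 0.363, SMC1 to SMC3 from 1.46 to 1.52, the median percentile from 76.7 to 77.4, the opposite-strand share from 1.28% to 1.40% and the median log2(TPM + 1) from 6.14 to 6.20. The ratios of Nipped-B and SMC1 and the fold across counted members were added after the values were seen. No paired analysis was possible because the design holds a single condition. With 2 libraries an SD rests on 2 values.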
